A study of Danio rerio with 18 samples.

Results

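A set of 7 genes of light detection and the visual cycle was followed in whole zebrafish embryos given a morpholino, an antisense oligonucleotide, against cardiac troponin T2, a protein of the contractile filaments of the heart (tnnt2 morphants), and in control embryos. They were the opsins opn1sw1, opn1sw2 and rho, the transducin subunits gnat2 and gngt2a, the calcium sensor rcvrn2 and the visual cycle enzyme rpe65a. They were chosen by their levels on these same arrays, where earlier results, the authors' lists among them, had shown them higher in controls than in morphants, so every difference between morphants and controls below is a description of them and carries no test. They were matched by 8 of the 15502 probe sets of the array, of which 7 passed a filter on mean level and were among the 11626 tested. Total RNA of the AB strain was hybridised as biotin-labelled cRNA to 18 Affymetrix arrays, 3 for morphants and 3 for controls at each of 36, 48 and 60 hours after fertilisation (h). Both kinds of embryo were injected at the single-cell stage and raised at the same temperature, and each RNA came from pooled embryos to which every parent pair gave the same number. By their titles the controls were wild type, whereas the protocol and the design text name a control morpholino, and the protocol gives the first collection as 32 h where the titles and the design text give 36 h. The labels do not say that the 3 arrays of a group came from separate clutches, so each p-value reflects no more than the array-to-array spread, which may be technical.

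In a vertebrate photoreceptor, light is caught by an opsin, a receptor that holds 11-cis retinal. The excited opsin activates transducin, a G protein of alpha, beta and gamma subunits, whose alpha subunit switches on a phosphodiesterase, and the fall in cyclic GMP closes the channels of the outer segment. Calcium sensors of the recoverin family adjust the shut-off of the opsin, and the retinal pigment epithelium turns the spent chromophore back into 11-cis retinal. In zebrafish the pineal organ makes photoreceptors before the retina does, and retinal cones and rods first appear in a ventral patch while the embryo is still developing.

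Values are log2 expression levels after quantile normalisation, each probe set on its own scale, so that levels of different genes are not set against each other. A mean under 0.62, the 25th percentile of the means of all probe sets, was taken as too dim to fix the size of a change, and no fold is given against it. As deposited, the median levels of the arrays lay between 1.19 and 3.86, lowest in array 2 of the controls at 60 h and in array 1 of the controls at 36 h. The level of tnnt2a itself averaged 2.01, 3.21 and 2.22 in morphants at 36, 48 and 60 h, against 2.03, 3.23 and 2.53 in controls, and whether a morpholino lowers its target's transcript depends on its design, which the labels do not give. Morphants had 10 probe sets lower than controls at 36 h, 23 at 48 h and 28 at 60 h by limma, a linear model with moderated errors, at an adjusted p under 0.05, which is 0.086%, 0.198% and 0.241% of the 11626 tested. At 48 h same-numbered arrays of morphants and controls deviated together, and a fit with the array number as a block raised the count in either direction to 113, against 66 without it. That block joined same-numbered arrays of all times, whose deviations at 36 and 60 h correlated at 0.11, -0.14 and 0.37 in controls and 0.08, 0.06 and 0.07 in morphants. It also raised the counts at 36 h, from 21 to 30, and at 60 h, from 107 to 154. Arrays of different numbers were not compared.

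All 7 genes had a lower mean in morphants than in controls at 36, 48 and 60 h. Over the 7 genes the median log2 difference of morphants minus controls was -1.33 at 36 h, -1.05 at 48 h and -2.39 at 60 h, where the median of all tested probe sets was 0.01, 0.01 and -0.00. The median at 36 h was the value of rcvrn2, whose means of -0.93 in morphants and 0.41 in controls both lay under 0.62. Morphant means of opn1sw1, gnat2, gngt2a and rpe65a at 36 h lay under it too. The median at 36 h therefore gives a direction and no firm size. At 60 h all 3 morphant arrays lay below all 3 control arrays in 6 of the 7 genes, as they did in 11.3% of all tested probe sets. At 36 h this held for 3 genes and at 48 h for 2, against 6.93% and 11.8% of all tested probe sets. These separations are of quantile-normalised values. As deposited, rcvrn2 overlapped at 60 h, with morphant array 2 at 2.26 and control array 2 at 2.22. At 36 h opn1sw2 and gngt2a overlapped as deposited, where control array 1 held 1.63 and -0.51, below every morphant array for opn1sw2. Of the 7 genes, limma called 0 lower at 36 h, 0 at 48 h and 2 at 60 h (opn1sw1 and opn1sw2), beside 0.086%, 0.198% and 0.241% of all tested probe sets. At an unadjusted p under 0.05 by limma were 2, 3 and 6 of the 7, where 1534, 1192 and 2064 of all 11626 tested probe sets were. These counts describe genes chosen for this difference and do not test it. Of these genes opn1sw1, gnat2, gngt2a and rcvrn2 passed the filter only through the controls at 60 h, where they were highest. Both calls at 60 h were lost on the deposited values and without control array 2 at 60 h, and that of opn1sw2 also without morphant array 2. Without control array 3 at 36 h, opn1sw1 and rpe65a were called at 36 h, where the called probe sets in either direction rose from 21 to 291 of all tested. In whole embryos, fewer cells that express a gene and less of its RNA in each of them cannot be told apart.

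**Figure D1:**
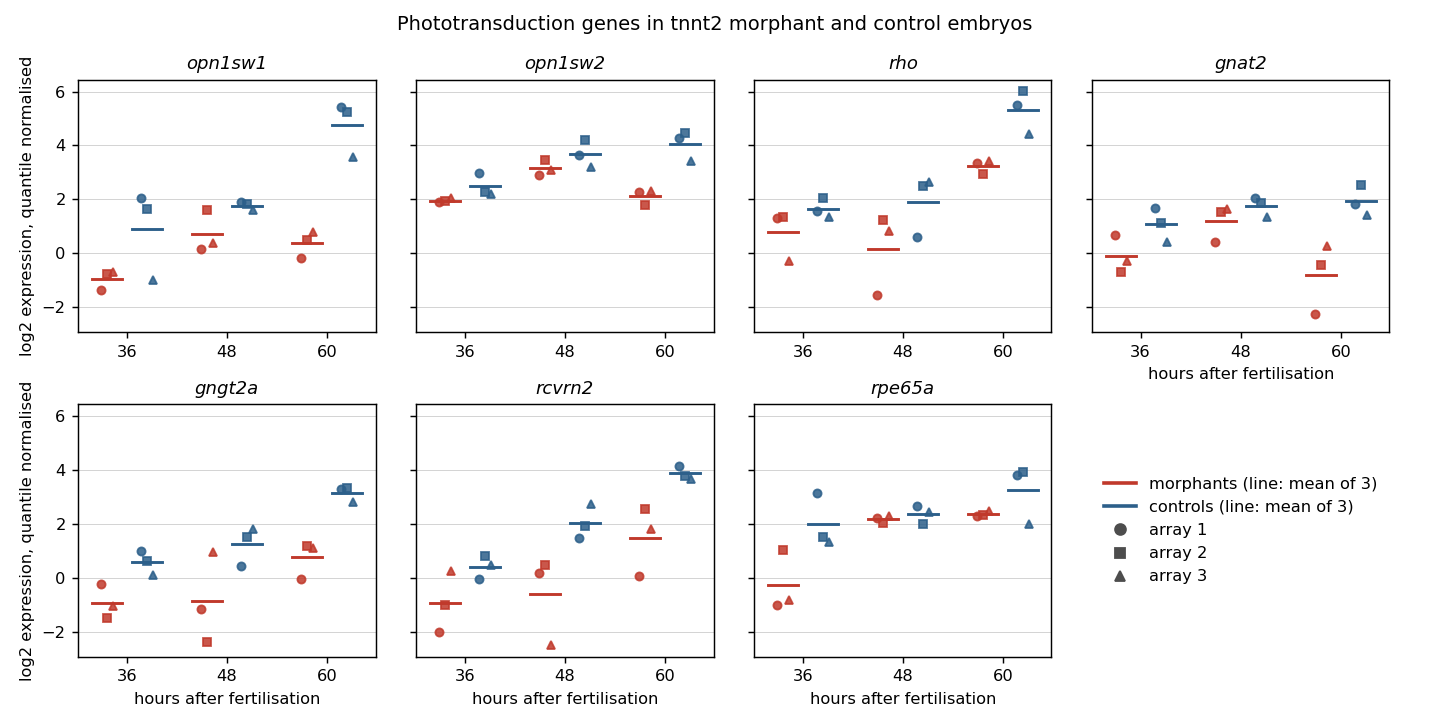
Log2 expression of the 7 genes (vertical axis, quantile normalised) in each array at 36, 48 and 60 hours after fertilisation (horizontal axis), with morphants in red left of controls in blue, the mean of 3 arrays as a line and the array number as the marker. At 60 h the morphant arrays of opn1sw1 lie between -0.17 and 0.80 and the control arrays between 3.56 and 5.43, and only rpe65a has arrays of the groups that overlap there.

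The ultraviolet cone opsin opn1sw1 had morphant means in the dim range at 36 and 60 h. At 36 h its level was -1.39, -0.79 and -0.71 in the morphant arrays, against 2.04, 1.65 and -1.02 in the control arrays. At 48 h it was 0.17, 1.58 and 0.38 in morphants, against 1.89, 1.81 and 1.58 in controls. The groups overlapped at 36 h, where control array 3 lay among the morphants, and at 48 h they touched, with the highest morphant and the lowest control array equal to 2 decimals and the morphant one lower beyond them. At 60 h opn1sw1 stood at -0.17, 0.49 and 0.80 in morphants, against 5.43, 5.26 and 3.56 in controls. Every control array at 60 h was above every other array of the series for this gene, and the morphants at 60 h overlapped the morphants at 48 h. The log2 difference was -1.85, -1.05 and -4.37 at the 3 times, each with a standard error of 0.70. No fold is given at 60 h because the morphant mean of 0.37 ± 0.50 lay in the dim range, against 4.75 ± 1.03 in controls (SD, n = 3 each).

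The blue cone opsin opn1sw2 had the smallest standard error of the 7. At 36 h it measured 1.88, 1.92 and 2.03 in morphants, against 2.98, 2.27 and 2.19 in controls. At 48 h the arrays held 2.89, 3.47 and 3.08 in morphants, against 3.66, 4.2 and 3.2 in controls. Morphants were thus below controls in every array at 36 h, whereas the groups overlapped at 48 h. At 60 h opn1sw2 read 2.26, 1.80 and 2.32 in morphants, against 4.28, 4.48 and 3.43 in controls, with no overlap. The mean at 60 h was 2.13 ± 0.29 in morphants and 4.06 ± 0.56 in controls (SD, n = 3 each), a level 3.83-fold lower in morphants. The log2 difference was -0.54 at 36 h, -0.54 at 48 h and -1.94 at 60 h, with a standard error of 0.32. The morphant mean at 60 h was also below the morphant mean at 48 h, 3.15, and those arrays did not overlap.

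The rod opsin gene rho was the only opsin of the 3 whose morphant arrays at 60 h all lay above the morphant arrays of both earlier times. At 36 h it stood at 1.29, 1.34 and -0.30 in morphants, against 1.57, 2.04 and 1.34 in controls, and at 48 h at -1.56, 1.23 and 0.83 in morphants, against 0.58, 2.51 and 2.64 in controls. At both times the arrays of the groups overlapped. At 60 h rho measured 3.33, 2.93 and 3.43 in morphants, against 5.50, 6.02 and 4.43 in controls, and every morphant array lay below every control array. Levels at 60 h averaged 3.23 ± 0.27 in morphants and 5.32 ± 0.81 in controls (SD, n = 3 each), 4.24-fold lower in morphants. The log2 difference was -0.87, -1.74 and -2.09 at the 3 times, with a standard error of 0.67.

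The cone transducin subunits gave the same order of groups at 60 h. For gnat2, the alpha subunit of cones, the brighter of its probe sets measured 0.68, -0.70 and -0.30 in morphants at 36 h, against 1.67, 1.14 and 0.41 in controls. At 48 h it gave 0.42, 1.54 and 1.63 in morphants, against 2.05, 1.87 and 1.35 in controls. The groups overlapped at 36 and 48 h. At 60 h gnat2 read -2.27, -0.45 and 0.26 in morphants, against 1.84, 2.53 and 1.42 in controls, with no overlap. The log2 difference was -1.18, -0.56 and -2.75, with a standard error of 0.68. Morphant array 1 at 60 h was the lowest of all 18 arrays, and without it the difference at 60 h was -2.02. The other probe set of gnat2 did not pass the filter, and at 60 h it held -1.16, -2.33 and -1.69 in morphants, against 0.41, 1.66 and -0.97 in controls.

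For gngt2a, the gamma subunit of cones, levels at 36 h were -0.23, -1.48 and -1.07 in morphants, against 1.01, 0.61 and 0.12 in controls. At 48 h they were -1.16, -2.4 and 0.96 in morphants, against 0.45, 1.51 and 1.82 in controls. Morphants lay below controls in every array at 36 h and overlapped with them at 48 h through morphant array 3. At 60 h gngt2a stood at -0.05, 1.19 and 1.12 in morphants, against 3.32, 3.33 and 2.81 in controls, again with no overlap. The mean at 60 h was 0.76 ± 0.70 in morphants and 3.15 ± 0.29 in controls (SD, n = 3 each), 5.26-fold lower in morphants. Its log2 difference was -1.50, -2.13 and -2.39, with a standard error of 0.76. A probe set without a gene name, described as similar to human transducin gamma-T2 and under the filter, gave 1.49, -0.96 and 0.34 in morphants at 60 h, against 4.32, 4.37 and 2.53 in controls.

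The recoverin gene rcvrn2, whose family restrains the kinase that shuts the opsin off, kept the groups apart at 48 and 60 h. Levels at 36 h were -2.01, -1.01 and 0.24 in morphants, against -0.06, 0.81 and 0.48 in controls, and the groups overlapped. At 48 h they were 0.18, 0.47 and -2.51 in morphants, against 1.46, 1.92 and 2.75 in controls. At 60 h rcvrn2 gave 0.07, 2.55 and 1.80 in morphants, against 4.15, 3.79 and 3.69 in controls. All morphant arrays were below all control arrays at 48 and at 60 h, although at 60 h this did not hold on the deposited values. The morphants spread more than the controls at 60 h, with a mean of 1.47 ± 1.27 in morphants and 3.88 ± 0.25 in controls (SD, n = 3 each), a level 5.30-fold lower in morphants. The log2 difference was -1.33, -2.66 and -2.41, with a standard error of 0.79. Without morphant array 1 at 60 h it was -1.70 there, 3.26-fold lower in morphants.

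The isomerase gene rpe65a, which acts in the retinal pigment epithelium and not in the photoreceptor, kept the groups apart at 36 h. It then measured -1.0, 1.04 and -0.84 in morphants, against 3.13, 1.52 and 1.33 in controls, with no overlap. At 48 h it was 2.24, 2.02 and 2.31 in morphants, against 2.67, 1.98 and 2.43 in controls, and at 60 h 2.29, 2.33 and 2.48 in morphants, against 3.81, 3.93 and 2.02 in controls. The groups overlapped at both later times, at 60 h because control array 3 lay below all morphant arrays. The log2 difference was -2.26, -0.17 and -0.88, with a standard error of 0.57, and without control array 3 at 60 h it was -1.50 there. A probe set of the same transcript cluster that carries no gene name had 2.79, 1.55 and 1.80 in morphants at 60 h, against 4.12, 4.67 and 2.69 in controls, and its difference was -1.47, 1.73 and -1.78 at the 3 times with a standard error of 0.95. At 48 h the probe sets of this cluster therefore differed in sign.

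**Figure D2:**
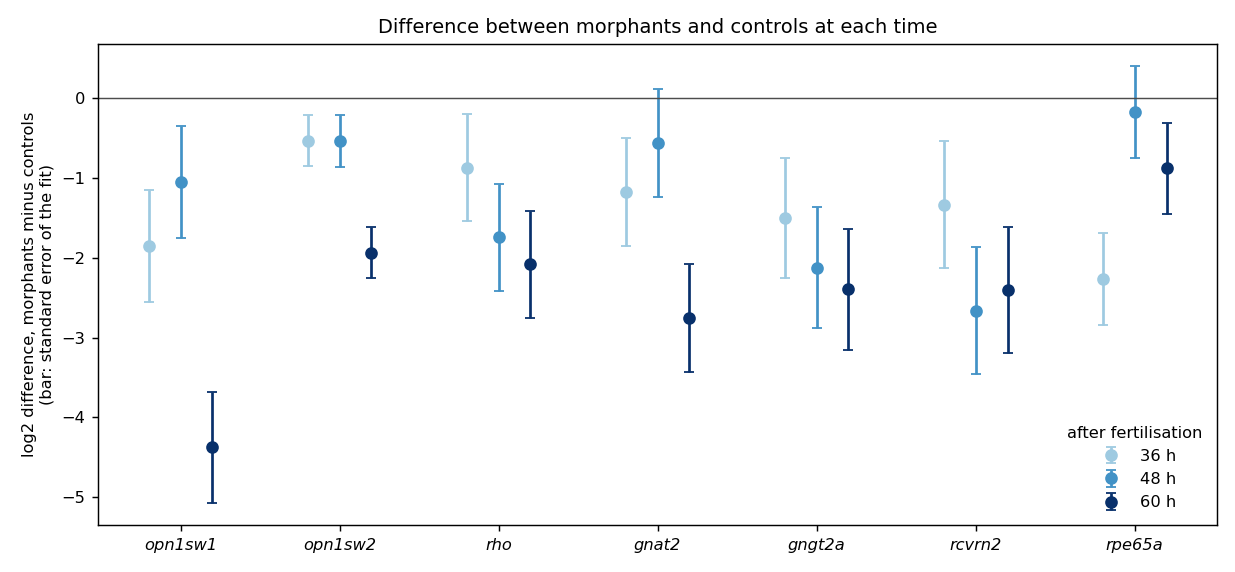
Log2 difference of morphants minus controls (vertical axis) for each of the 7 genes (horizontal axis) at 36, 48 and 60 h, from light to dark blue, with the standard error of the fit as bars. All 21 points lie below 0, from -0.17 for rpe65a at 48 h to -4.37 for opn1sw1 at 60 h.

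Control array 3 at 60 h held the lowest level of the 3 control arrays for all 7 genes, by 0.10 in rcvrn2 to 1.79 in rpe65a, with a median gap of 0.85. The same array was the lowest of the 3 in 37.8% of all tested probe sets. Averaged over the 7 genes after each was scaled to its own mean and SD over the 18 arrays, the arrays at 60 h stood at -0.59, -0.13 and 0.05 in morphants, against 1.57, 1.70 and 0.89 in controls. At 48 h they stood at -0.61, -0.18 and -0.24 in morphants, against 0.28, 0.54 and 0.45 in controls, and at 36 h at -1.09, -1.01 and -1.13 in morphants, against 0.20, -0.12 and -0.56 in controls. Every morphant array lay below every control array of its time on this mean, and all morphant arrays at 60 h lay below all control arrays at 48 h. The genes were chosen as lower in morphants on these same arrays, so the separation of their mean is no support. No share was computed for such means of other genes.

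The probe-level model of the authors gives each value a standard error, and it was large where the genes were dim. For opn1sw1 these deposited standard errors were 1.76, 1.18 and 1.1 in the morphant arrays at 60 h, against 0.13, 0.21 and 0.28 in the control arrays. For rho they were 0.39, 0.40 and 0.32 in morphants at 60 h, against 0.13, 0.15 and 0.20 in controls. The morphant levels of opn1sw1 were thus known far less precisely than its control levels. In the authors' deposited table, the log2 ratio of morphant over control at 60 h was -3.94 for opn1sw1, -1.29 for opn1sw2, -1.69 for rho, -0.96 for gnat2, -1.51 for gngt2a, -1.05 for rcvrn2 and -0.03 for rpe65a. Their probability of a positive log ratio was 1.32e-06 for opn1sw1 and 0.385 for rpe65a in the same deposited table. The authors' lists of probe sets higher in controls, on which the choice of genes partly rests, held 2 of the 7 genes among 36 probe sets at 36 h, 4 among 139 at 48 h and 4 among 18 at 60 h.

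The second question the design allows is how each gene changed between 36 and 60 h within morphants and within controls. Morphants at 60 h had higher means than morphants at 36 h for 6 of the 7 genes, with a median log2 difference of 1.68. Controls had higher means at 60 h than at 36 h for 7 of 7, with a median of 2.57. Both medians were values of gngt2a, whose means at 36 h, -0.92 in morphants and 0.58 in controls, lay under 0.62. They too give a direction and no firm size. The medians over all tested probe sets were -0.02 in morphants and -0.02 in controls. The fit called 2 of the 7 higher at 60 h in morphants (rho and rpe65a), where 6.86% of all tested probe sets were called higher. It called 5 higher in controls (opn1sw1, opn1sw2, rho, gngt2a and rcvrn2), where 9.57% were. The filter acted on the mean over all arrays, the controls at 60 h among them. Without that group the means of opn1sw1, gnat2, gngt2a and rcvrn2 would lie under the filter level. These genes were thus tested only through the group where they were highest. The comparisons of 60 h with 36 h also share their arrays with those between morphants and controls, so they are a description as well.

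**Figure D3:**
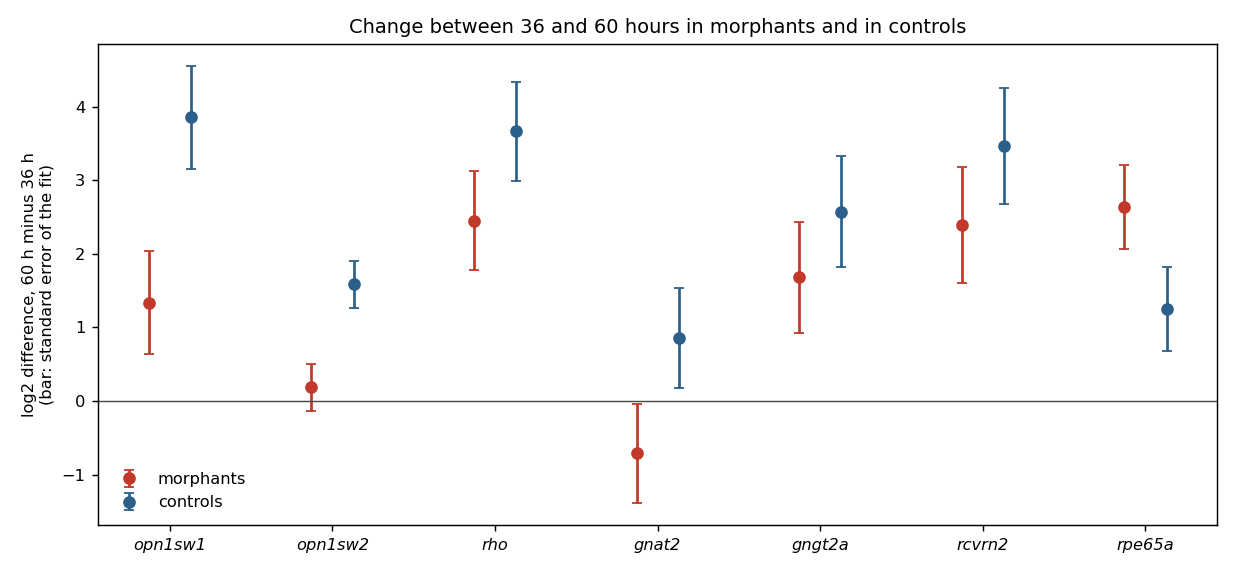
Log2 difference of 60 h minus 36 h (vertical axis) for the 7 genes (horizontal axis), in morphants in red left of controls in blue, with the standard error of the fit as bars. For opn1sw2 the points lie at 0.18 in morphants and 1.58 in controls, and rpe65a is the gene whose point is higher in morphants, at 2.64 against 1.25 in controls.

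Between 36 and 60 h opn1sw1 differed by 1.34 in morphants and by 3.86 in controls, 14.5-fold higher at 60 h in controls, with a standard error of 0.70. Without control array 3 at 36 h the difference in controls was 2.90, 7.49-fold, and without control array 3 at 60 h it was 4.45, 21.9-fold. For opn1sw2 the log2 difference was 0.18 in morphants and 1.58 in controls, 3.00-fold higher at 60 h in controls, with a standard error of 0.32. The level of rho was 5.47-fold higher at 60 h in morphants and 12.7-fold higher in controls, log2 differences of 2.45 and 3.67 with a standard error of 0.67. For gnat2, gngt2a and rcvrn2 the differences were -0.71, 1.68 and 2.4 in morphants, against 0.86, 2.57 and 3.47 in controls. For the enzyme gene rpe65a it was 2.64 in morphants and 1.25 in controls, whereas the unnamed probe set of its transcript cluster gave 2.49 in morphants and 2.80 in controls. The difference between these changes, morphants minus controls, was below 0 for 6 of the 7 genes, from -2.52 for opn1sw1 to -0.89 for gngt2a, and 1.38 for rpe65a, with -0.31 for that unnamed probe set. None of the 7 was called on it by limma, and over all tested probe sets 1 was (0.0086%), with 409 at an unadjusted p under 0.05.

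Ordered by mean level, controls at 60 h were the highest of the 6 groups for all 7 genes. For rho, gngt2a, rcvrn2 and opn1sw1 all control arrays at 60 h lay above all arrays of the next group in that order, which was the morphants at 60 h for rho and the controls at 48 h for the other genes. For opn1sw2, gnat2 and rpe65a the controls at 60 h overlapped the next group. No share of all tested probe sets with such an order was computed. The genes were chosen as higher in controls, and opn1sw1, gnat2, gngt2a and rcvrn2 passed the filter only through the controls at 60 h. This order is therefore a description. Morphants at 36 h were the lowest group for opn1sw1, opn1sw2, gngt2a, rcvrn2 and rpe65a, morphants at 48 h for rho and morphants at 60 h for gnat2. Most neighbours lower in these orders overlapped. The morphant mean of opn1sw1 at 60 h, 0.37, was below the control mean at 36 h, 0.89, with overlapping arrays.

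Across the 18 arrays, which fall into 6 groups and share those group differences, the Pearson correlation of each gene with the mean of the other 6 genes was 0.95 for opn1sw1, 0.79 for gngt2a, 0.78 for opn1sw2, 0.74 for rcvrn2, 0.71 for rpe65a, 0.69 for rho and 0.57 for gnat2. The closest pair was opn1sw2 and opn1sw1, at 0.84, and the loosest was gnat2 and rho, at 0.21. Outside the 7, the named genes most like their mean profile were elovl4b at 0.913, foxg1b at 0.909, ifrd1 at 0.875, nipsnap2 at 0.874, carmil2 at 0.869, klf11a at 0.867, rbp2a at 0.865 and hgd at 0.863. The fatty acid elongase gene elovl4b averaged 1.92, 2.89 and 3.16 in morphants at 36, 48 and 60 h, against 2.68, 3.91 and 5.09 in controls. The transcription factor gene foxg1b averaged 3.16, 4.17 and 4.43 in morphants at these times, against 4.11, 4.79 and 5.55 in controls. Names of elovl4b and foxg1b come from the authors' lists alone, and all 8 were picked for this likeness, so these levels are a description.

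The other genes of the pathway were read from lists of opsins, transducins, phosphodiesterases and channels, shut-off factors, visual cycle genes, outer segment and synapse genes, retinal transcription factors and markers of neighbouring cell types. Of 57 such genes named on the array 38 were tested. Between morphants and controls 2 of the 38 were called lower at 36 h, 0 at 48 h and 2 at 60 h, with 0 called higher at any time, and 7, 10 and 19 were at an unadjusted p under 0.05, where 1534, 1192 and 2064 of the 11626 were. Among all tested probe sets 0.086%, 0.198% and 0.241% were called lower and 0.0946%, 0.37% and 0.68% higher at the 3 times. The lists were chosen with earlier results of these data known, so their counts are a description. The median log2 difference over the 38 was -0.09 at 36 h, -0.35 at 48 h and -0.52 at 60 h, beside 0.01, 0.01 and -0.00 for all tested probe sets. At 60 h 29 of the 38 were below 0.

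Of the other opsins, exorh, the opsin of the pineal organ, had a log2 difference of -1.87 at 60 h with an adjusted p of 0.13. The melanopsin gene opn4.1 was at -0.94 and the green cone opsin gene opn1mw4 at 0.26 at 60 h, both short of the threshold. The red cone opsin gene opn1lw1 and valopa, both under the filter, were at 0.36 and 0.17. Another green cone opsin gene, opn1mw1, was left out by the filter because it was dim in 5 of the 6 groups. At 60 h it gave -2.35, -2.32 and -3.0 in morphants, against 3.59, 3.18 and 1.1 in controls. With no filter its difference was -5.18 with an adjusted p of 0.045, and the green cone opsins are close copies whose transcripts a probe set may not tell apart.

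Of the other named cascade genes, the 1 transducin, both phosphodiesterase genes and 5 of 6 shut-off genes had a mean over the 18 arrays under the filter. Rod transducin gnat1 and the inhibitory cone phosphodiesterase subunits pde6ha and pde6hb had log2 differences at 60 h of -3.0 for gnat1, -3.98 for pde6ha and -3.39 for pde6hb. With no filter their adjusted p-values by limma were 0.16 for gnat1, 0.11 for pde6ha and 0.1 for pde6hb. At 60 h pde6ha gave -0.86, -4.57 and -3.45 in morphants, against 1.21, 0.96 and 0.90 in controls, and these did not overlap. Among shut-off genes the cone arrestin arr3a differed by -2.21 at 60 h, the guanylate cyclase genes gc2 and gucy2f by 1.49 and -1.32, and all of them were under the filter. The only shut-off gene tested besides rcvrn2, the cyclase activator guca1b, differed by 0.33 at 60 h. In the visual cycle rlbp1a, a carrier of 11-cis retinal outside the photoreceptor, stood at 2.18, 1.89 and 2.20 in morphants at 60 h, against 3.61, 3.54 and 3.42 in controls. Its log2 difference of -1.43 had an adjusted p of 0.058 by limma, short of the threshold although the arrays did not overlap. The others of this list with the widest gaps were the carotenoid oxygenase gene bco2l, under the filter at -1.28, and rdh14b at -0.64. Of the 6 tested visual cycle genes 3 were below 0 at 60 h, and rdh10a was at 0.59 and dhrs3a at 0.14. The outer segment genes prph2a and prph2b, both under the filter, differed by -1.90 and 0.50 at 60 h. The synaptic ribbon gene ctbp2a, which was tested, differed by -0.66 with an adjusted p of 0.079 by limma.

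Of 17 transcription factor genes tested, limma called 4 between morphants and controls at 1 of the times, and all 4 were lower in morphants. Over all tested probe sets 0.086% were called lower at 36 h and 0.241% at 60 h. This list too was chosen with earlier results of these data known, so the adjusted p-values of its genes describe them and are no independent test. The homeobox gene crx, which drives photoreceptor genes, gave -5.95, -2.75 and -1.09 in morphants at 36 h, against 2.12, 1.87 and 0.28 in controls. Its log2 difference of -4.69 had an adjusted p of 0.01 by limma. The nuclear receptor gene nr2e3, a rod fate factor in mammals, gave -0.54, -3.23 and -0.50 in morphants at 36 h, against 2.44, 2.18 and 0.74 in controls, a difference of -3.21 with an adjusted p of 0.023. Neither gene's arrays overlapped at any of the 3 times, but at 48 and 60 h the differences of -1.08 and -1.45 for crx and -0.93 and -1.29 for nr2e3 did not pass the test.

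At 60 h the eye field gene rx2 gave 1.02, 0.27 and 0.44 in morphants, against 2.28, 3.1 and 2.13 in controls, a difference of -1.93 with an adjusted p of 0.023 by limma, from a probe set of the kind that may match more than 1 transcript. The homeobox gene vsx1, found in bipolar cells, gave 4.91, 5.22 and 5.05 in morphants, against 6.13, 6.02 and 6.19 in controls, 1.05 lower on the log2 scale with an adjusted p of 0.02. Between 36 and 60 h crx and nr2e3 rose in morphants and in controls, each past the threshold, but the morphant means at 36 h, -3.27 for crx and -1.43 for nr2e3, were too dim to fix the size. On the deposited values none of the 4 calls held, and the adjusted p over all alternatives ranged to 0.73 for crx, 0.94 for nr2e3, 0.78 for rx2 and 0.78 for vsx1. The nr2e3 call was also lost without control array 1 or 2 at 36 h (adjusted p 0.089 and 0.063 by limma), and both calls at 60 h without control array 1 or 2 or morphant array 2 or 3 (0.059 to 0.16 for rx2, 0.065 to 0.078 for vsx1). With no intensity trend the adjusted p at 36 h was 0.059 for crx and 0.066 for nr2e3.

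**Figure D4:**
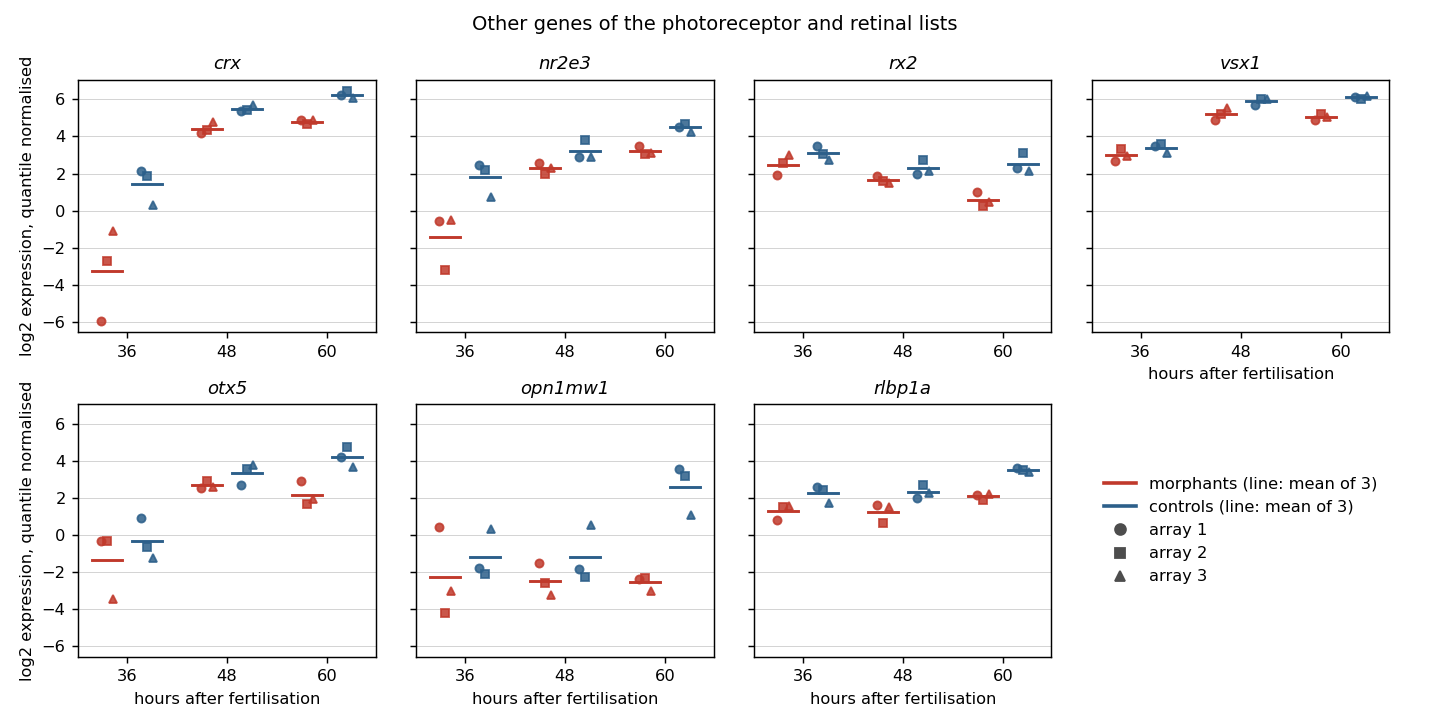
Log2 expression (vertical axis, quantile normalised) of crx, nr2e3, rx2, vsx1, otx5, opn1mw1 and rlbp1a in each array at 36, 48 and 60 hours after fertilisation (horizontal axis), with morphants in red left of controls in blue, the mean of 3 arrays as a line and the array number as the marker. At 36 h crx lies between -5.95 and -1.09 in morphants and between 0.28 and 2.12 in controls.

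Markers of neighbouring cell types were read beside the 7 genes. Of 8 pineal markers 4 were named and 3 tested, with 0 called by limma at any time and 0, 1 and 2 at an unadjusted p under 0.05. Their mean log2 level per array at 60 h ranged over 1.02 to 2.21 in morphants and 2.53 to 3.44 in controls, and otx5, a factor of the pineal organ and retina, differed by -2.03 with an adjusted p of 0.17 by limma. The melatonin enzyme gene aanat2 was under the filter, at -1.22. Of 15 lens markers 2 were named, and at 60 h the crystallin genes cryaa and crybb1 differed by -2.02 and -0.57, with adjusted p-values of 0.23 and 0.13 by limma. Lens means per array at 60 h ranged over 4.62 to 4.96 in morphants and 5.67 to 6.65 in controls. Pigment cell genes dct and mitfa differed by -0.04 and -0.63 at 60 h, tyr was under the filter at -0.01, and the pigment means ranged over 3.75 to 4.63 in morphants and 4.06 to 4.93 in controls. Of 12 genes listed as markers of other retinal cells 10 were tested, and vsx1 alone was called, at 60 h. In RNA of whole embryos, levels of these genes cannot be assigned to the retina. Their means per array at 60 h ranged over 3.96 to 4.01 in morphants and 4.21 to 4.41 in controls. On these means the lens, pineal and other retinal lists did not overlap at 60 h, with morphants lower. This held for 11.3% of single tested probe sets, and no such share was computed for means of several genes. The pineal list shares exorh and otx5, and the other retinal list vsx1 and rlbp1a, with lists read above, so they are not separate observations. The lens means were also apart at 36 h, over 2.26 to 3.80 in morphants and 4.53 to 5.47 in controls. At 48 h they overlapped, over 4.39 to 4.86 in morphants and 3.48 to 4.81 in controls, with both lens genes higher in morphants. Pineal means overlapped at 36 and 48 h, and those of other retinal cells at 36 h. Single markers were mixed, since 7 of the 10 other retinal markers were below 0, elavl3 was at 0.97 and atoh7 at 0.64, and the pineal marker tph1a was at -0.03. The part of these markers in the levels of the 7 genes was not tested.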

How the data were processed

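The deposited series values are log2 expression levels per array, made by the authors with mmgMOS of the puma package, per the deposited readme and file headers. The base of the logarithm is not stated and was taken as 2. The authors also deposited a standard error for each value, a log2 ratio of morphant over control and the probability, from 0 to 1, of a positive log ratio. No puma version is given in the sources used here. Genes were named from deposited descriptions, deposited lists and a RefSeq table of assembly GRCz12tu, used for names only (2950 probe sets, 2468 genes). The names of gngt2a, rcvrn2 and rpe65a rest on the authors' lists alone. In the authors' list of probe sets higher in morphants at 60 h, 0 of 8 checked names matched, so it was not used.

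Members and gene lists were chosen with earlier results of these data known. Array medians spanned 2.68, so the 15502 probe sets (115 manufacturer controls left out) were quantile normalised with limma 3.58.1 in R 4.3.3. Means below the 25th percentile were filtered out. A mean for each group was fitted to all 18 arrays with an intensity trend (12 residual degrees of freedom), and Benjamini-Hochberg adjustment covered 11626 probe sets. The brightest probe set stood for a gene. Precision is limited by the number of arrays, with a median standard error of 0.28 for a difference. Tested on simulated data of 15502 probe sets for morphants minus controls at 60 h, the fit recovered 44 of 100 changes of -1 and 86 of 100 of -2, with 6 false calls. The simulated arrays had independent normal noise of each probe set's spread and no differences of time or array level. These arrays differ in both and deviate together in part, so the recovery and false calls are not those of the real data.

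Named in the text are all members, tnnt2a, list genes called between morphants and controls, otherwise up to 3 of a list with the widest difference at 60 h, and the 8 genes most like the members. Genes opn1mw4, opn1lw1, valopa, guca1b, rdh10a, dhrs3a, elavl3, atoh7 and tph1a were named beyond this rule after their values were seen. Alternatives were median centring, deposited values, other filters, no trend, a replicate block, arrays of 1 time alone and each array left out. Same-numbered arrays deviated together at 36 h (r of 0.10, 0.14 and 0.27) and 48 h (0.18, 0.20 and 0.18) and not throughout at 60 h (0.16, -0.06 and 0.27). Columns of other samples numbered 0.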

Additional observations from a re-analysis of the deposited data

How the results depend on the processing

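The 21 differences between morphants and controls of the 7 genes kept their sign in all 528 alternative values, with opn1sw1 at 60 h between -4.97 and -3.97 and rpe65a at 48 h as near 0 as -0.02. Most of these values could not differ, since arrays were normalised before any was left out. Filters, the trend, the block, 1 time alone and arrays of other groups left each difference as it was. Only median centring, the deposited values and leaving out arrays of the compared groups could move it. As deposited, array medians at 60 h were 2.19, 2.53 and 2.56 in morphants, against 2.14, 1.19 and 2.45 in controls. Over the alternatives, differences at 60 h came as near 0 as -1.51 for opn1sw2, -1.89 for gngt2a and -0.43 for rpe65a. The genes were also chosen as lower in morphants, so the kept sign is no independent support. The counts of calls moved far more. On the deposited values, whose array medians differ, the called probe sets at 36, 48 and 60 h were 0, 5 and 1, against 21, 66 and 107 after quantile normalisation, the called list genes 0, 0 and 0, against 2, 0 and 2, and those called among the 7 genes at 60 h 0, against 2. Centring arrays on their medians gave 37 and 63 called probe sets at 48 and 60 h and 1 list gene at 48 h. The filter at the 50th percentile gave 21 probe sets at 48 h, 1 list gene at 36 h and 1 of the 7 genes at 60 h. With no intensity trend 9 and 37 probe sets were called at 36 and 60 h, and 0 and 1 list genes at 36 and 48 h. Arrays of 1 time alone gave 0, 361 and 34 probe sets, 0, 4 and 4 list genes, and 0, 0 and 3 of the 7 genes at the 3 times. With both dimmest arrays left out, an alternative chosen after seeing the data, 225 probe sets were called at 48 h, and 1 list gene each at 36 and 48 h.

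With the replicate block, called probe sets were 30, 113 and 154 at the 3 times and no call among the 7 genes changed. From 36 to 60 h in controls, 5 of the 7 genes and 16 list genes were called, against 2 and 10 on the deposited values and 1 of the 7 at the 50th percentile. In morphants 1376 probe sets, 2 of the 7 genes and 10 list genes (3 lower and 7 higher at 60 h) were called. The deposited values gave 166, 0 and 5. At the 50th percentile 0 of the 7 and 6 list genes were called, and without the dimmest arrays 2202 probe sets. The change of opn1sw2 in morphants turned to -0.35 on the deposited values, and that of gnat2 ranged over -1.25 to 0.013 when an array was left out, with 0.013 without morphant array 1 at 60 h. The interaction called 0 probe sets when arrays were median-centred, as deposited or fitted with no trend, against 1.

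Leaving out each array in turn, the called probe sets ranged over 11 to 291 at 36 h (291 without control array 3 at 36 h), 21 to 171 at 48 h and 10 to 707 at 60 h (10 without morphant array 2 at 60 h, 707 without control array 1 at 36 h). Over the 36 to 60 h changes they ranged over 1467 to 3136 in controls, 840 to 1979 in morphants and 1 to 10 in the interaction. Called list genes ranged over 1 to 3, 0 to 1 and 0 to 10 at the 3 times, 11 to 17 in controls and 9 to 14 in morphants. Calls among the 7 genes ranged over 0 to 2 at 36 h and 0 to 3 at 60 h, 4 to 6 in controls and 1 to 3 in morphants. The dim range limits the size of a change in opn1sw1 and gnat2, whose morphant means at 60 h were below 0.62. Morphant means at 36 h were below it for opn1sw1, gnat2, gngt2a, rcvrn2, rpe65a, crx and nr2e3. At 48 h those of rho, gngt2a and rcvrn2 were, so the sizes of these differences are not fixed either. Causes of these changes were not tested.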
